A study of Aspergillus nidulans with 6 samples.

Results

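The genes described here are the 237 nuclear genes of the filamentous fungus Aspergillus nidulans that lie within 50 kb of a chromosome end, of 10720 nuclear genes with an AN number in the count tables. They were chosen by position alone: a feature start of at most 50000 on its chromosome, or a feature end within 50 kb of the last feature end there. The 8 chromosomes give 16 ends, called left (low coordinates) and right below, with 9 genes (V right and VIII left) to 20 genes (III left) each. Coordinates are those of the count tables, whose chromosomes are named for strain FGSC A4. Distances were measured from coordinate 1 on the left and from the last feature end on the right, since chromosome lengths were not used here.

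Polyadenylated RNA of mycelium was counted in 6 libraries. The 3 WT libraries came from strain LO1362 (genotype mcrA+) and the 3 mcrA-deleted libraries from strain LO8158 (genotype mcrA-), both grown for 1 day at 37 °C in liquid glucose minimal medium that held uridine, uracil, pyridoxine and riboflavin. The comparison asks how transcript levels differ once mcrA, which encodes a negative regulator of secondary metabolism, is deleted. With a single strain for each genotype, any further difference between LO1362 and LO8158 cannot be told apart from loss of mcrA, and the labels do not say that replicates were separate cultures, so p-values measure the spread between these libraries.

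Chromosome ends of filamentous fungi are known as regions of repetitive DNA and repressive chromatin, in which many genes are rarely transcribed under laboratory growth. In Aspergillus species several clusters of secondary metabolite genes lie near the ends, and enzymes that modify histones, such as deacetylases, are known to hold some of them down. The penicillin cluster of A. nidulans is a textbook example of a cluster close to a chromosome end.

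The smallest library held 3374534 counts (mcrA-deleted replicate 1) and the largest 6051839 (WT replicate 2). Where a group summed to 0, a limit of 3 counts applies, equal to 0.203 CPM (counts per 1000000 counts) for WT and to 0.222 CPM for the mcrA-deleted group; these limits and the intervals below cover counting error only. The mitochondrial share was 1.06% in the smallest library and 0.0593% to 0.159% elsewhere. WT replicate 3 differed from the other WT libraries at some ends, so the main counts are also given without it. The feature of mcrA itself (AN8694, a locus number from background knowledge) gave 674, 903 and 655 counts in the WT libraries and 280, 422 and 273 after deletion, always in replicate order. It was lower where the label says deleted (log2 fold change -1.06 with SE 0.168, and an adjusted p of 0.00468 from the quasi-likelihood test of edgeR), yet each mcrA-deleted library kept reads on it.

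More of the genes near the ends gave no reads in WT than of the genes elsewhere. Of the 237 genes, 123 (51.9%) had 0 counts in all 3 WT libraries, against 1545 of the 10483 other nuclear genes (14.7%). In the mcrA-deleted libraries 103 (43.5%) had 0 counts, against 11.4% of the others, and 99 (41.8%) had 0 counts in all 6 libraries, against 10.1%. Counting genes with at most 3 WT counts as silent gave 60.3% and 19.5%, and counting genes under 1 CPM gave 72.2% and 24.8%. Without WT replicate 3 the share with 0 WT counts near the ends was 55.7%, and without WT replicate 2 or 1 it was 55.3% or 52.7%. Leaving out a WT library can only keep or raise this share. The shares compare sets of genes and carry no test, because neighbouring genes are not replicates. In counts from bulk mycelium, fewer expressing cells and less RNA per cell cannot be told apart, nor can a silent gene and a gene missing from these strains or one to which reads could not be placed.

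The silent share did not stop at 50 kb. It was 63.4% within 10 kb of an end (26 of 41 genes), 57.1% from 10 to 20 kb, 42.9% from 20 to 30 kb, 34.2% from 30 to 40 kb and 60.4% from 40 to 50 kb (32 of 53 genes). Just beyond the limit, from 50 to 60 kb, 22 of 52 genes (42.3%) were silent, and between 50 and 100 kb as a whole the share was 42.0% of 264 genes. It was 37.1% from 100 to 200 kb, 22.5% from 200 to 500 kb and 10.5% of the 7902 genes farther than 500 kb from an end. Within the first 100 kb the steps of 10 kb held 38 to 56 genes each and showed no even decline.

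**Figure D1:**
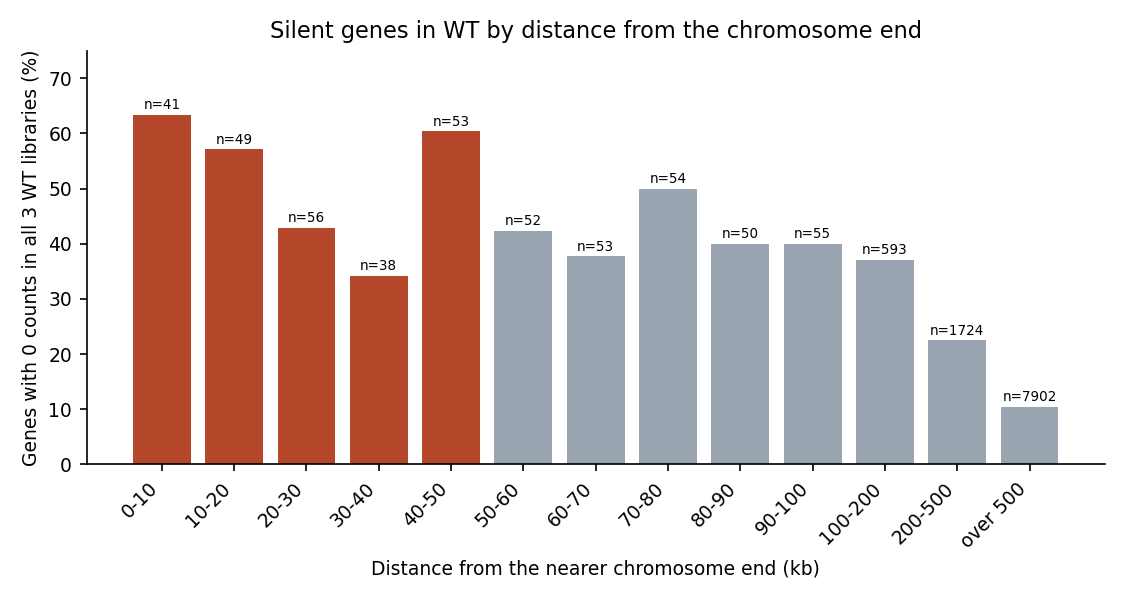
Share of nuclear genes with 0 counts in all 3 WT libraries (vertical axis, %) by distance from the nearer chromosome end (horizontal axis, kb), with the number of genes above each bar; red bars are the genes within 50 kb. The share was 63.4% within 10 kb, between 34.2% and 60.4% in the other steps up to 100 kb, and 10.5% beyond 500 kb.

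Silence was spread unevenly over the ends. At VI left, 18 of 19 genes had 0 counts in all 6 libraries, and at IV left and II left 9 of 14 and 12 of 18. At III left 1 of 20 genes and at VIII left 1 of 9 genes had 0 counts in all 6. The shares silent in WT ran from 4 of 20 genes (III left) to 18 of 19 (VI left, 94.7%), so all 16 ends lay above the 14.7% of the other nuclear genes. The outermost gene had 0 counts in all 6 libraries at 11 of the 16 ends.

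The other 5 outermost genes were expressed to different degrees. AN2615 (VII right) had 67, 83 and 132 counts in WT and 65, 104 and 46 in the mcrA-deleted libraries. AN6972 (I right) had 15, 38 and 34 against 23, 31 and 62, and AN3471 (II right) had 37, 34 and 23 against 22, 21 and 19. None of them passed the test (adjusted p = 0.596, 0.391 and 0.313 in edgeR), and without WT replicate 3 the log2 fold change of AN2615 turned from -0.31 to 0.18. AN10000 (VIII right) and AN5093 (III left) had 27 and 2 counts over WT and 17 and 6 over the mcrA-deleted group, too few to be tested.

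**Figure D2:**
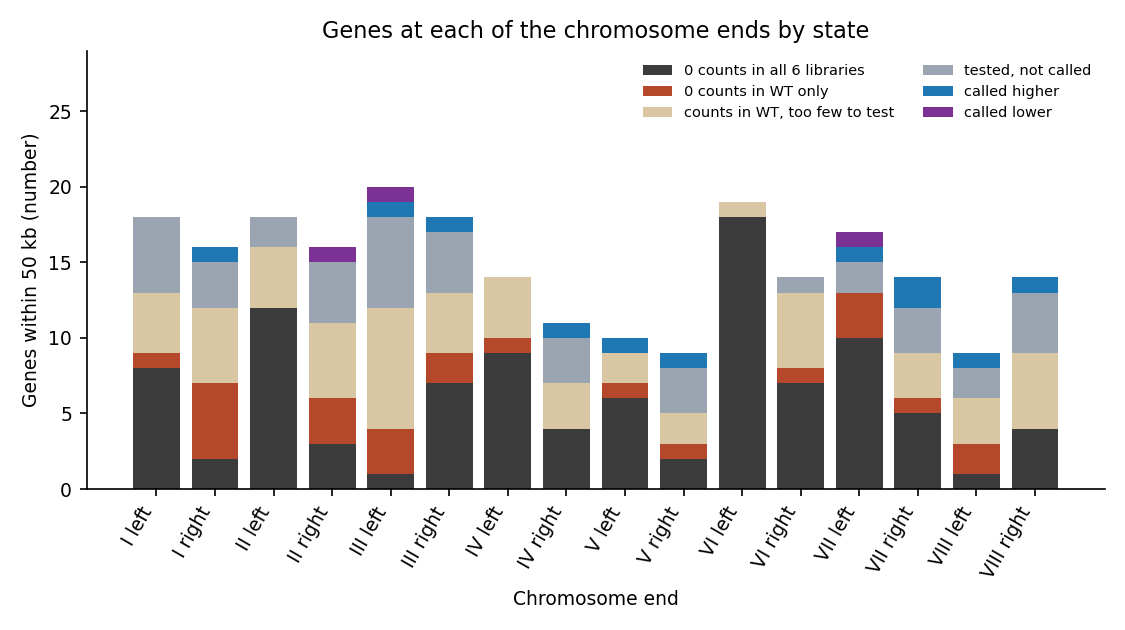
Number of genes within 50 kb at each chromosome end (vertical axis), stacked by state: 0 counts in all 6 libraries, 0 counts in WT only, counts in WT but too few to test, tested and not called, called higher and called lower in the mcrA-deleted libraries. VI left held 18 genes with 0 counts in all libraries out of 19, and III left 1 out of 20.

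The longest stretch of neighbouring nuclear genes without a single count in any library lay at the VI left end. It ran over 17 genes from AN9236 to AN12146 (chromosome VI, 1049 to 46029, 44.98 kb). It holds AN9226, listed from background knowledge as a nonribosomal peptide synthetase, an enzyme that assembles peptides without a ribosome (29167 to 37503), and AN11194 and AN11202, listed as prenyltransferases, which attach isoprenoid groups. Another silent run of 6 genes followed beyond the limit, at 56915 to 73676. Of the 4 runs of at least 8 such genes on all chromosomes, 2 lay at chromosome ends: this run and 8 genes at II left (AN12332 to AN12333, 715 to 20031). Runs of at least 5 such genes numbered 22, of which 3 lay at the ends, the third being the 6 outermost genes of I left (AN11925 to AN10813).

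Levels near the ends were low, both over all 237 genes, of which 51.9% had no WT counts, and among those with enough counts to be tested. Levels are compared between genes as reads per kilobase of genomic span and per 1000000 counts (RPKM). The upper quartile was 0.904 RPKM in WT for the genes near the ends and 32.0 RPKM for the other nuclear genes, and the 90th percentiles were 5.83 and 94.4 RPKM. At least 10 RPKM was reached by 11 genes (4.64%), against 50.7% of the others. Among genes with enough counts to be tested, which leaves out the silent ones, the median in WT was 4.38 RPKM near the ends (56 genes) and 18.3 RPKM for the others (7783 genes). Over all 237, the median gene near the ends had 0 counts in 5 of the 6 libraries, so the gap between the medians of log2(RPKM + 0.1), -6.68 ± 0.0267 in WT (SD, n = 3), is set largely by the pseudocount. Its difference between the genotypes has no stable direction. It was 0.09 higher in the mcrA-deleted libraries (exact two-sided permutation test, p = 1) and 0.12 lower with a pseudocount of 1 RPKM, where the groups did not overlap (exact permutation test, p = 0.1, the smallest possible).

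AN3481 (II right; chromosome II, 4038436 to 4039037) was far above the rest at 796 ± 21.6 RPKM in WT (SD, n = 3). The files and the RefSeq table give no function for it. It alone held 36.2% to 46.2% of the counts of all 237 genes in the WT libraries. The next in level were AN5257 (V right) at 49.7 ± 2.29 RPKM, AN6471 (I left) at 25.04 ± 4.96, AN8591 (III right) at 21.9 ± 7.15 and AN6968 (I right) at 16.9 ± 0.864. AN6471 and AN8591 did not differ beyond their spread, nor did AN8591 and AN6968, and AN8591 overlaps a neighbouring feature, so that reads of the shared part can belong to either. None of these 4 passed the test between genotypes. Their log2 fold changes were 0.12 (SE 0.297), -0.42 (SE 0.201), -0.03 (SE 0.43) and -0.06 (SE 0.123); with library size alone those of AN8591 and AN6968 were 0.14 and 0.11, and without mcrA-deleted replicate 3 that of AN5257 was -0.29.

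Of the 237 genes, 56 had enough counts to be tested between the genotypes, and 181 did not. Calls were made at an adjusted p below 0.05 (edgeR, quasi-likelihood, over all 7852 features tested). Near the ends 11 genes were called higher after deletion of mcrA, 3 were called lower and 42 were not called. Over all features tested 16.1% were called higher and 13.7% lower, 29.8% together. The tested genes near the ends had few reads: among other nuclear genes tested with a mean count at or below their median, 24.0% were called higher and 4.82% lower. That set had still fewer reads, with a median mean count of 19.5 against 34.8 for the tested genes near the ends, so it is not matched in count. The 19.6% higher near the ends lies between the 2 shares of higher calls, and the 5.36% lower lies near that of the low-count set. The calls are therefore not read as a result particular to the ends. The same holds for the median log2 fold change, 0.35 over the 56 genes, 0.00214 over all features tested and 0.43 over the other genes of low count. Groups did not overlap for 16 of the 56, against 482 of the 1017 other genes of low count and 48.9% of all features tested. The lower share near the ends was not tested. Without WT replicate 3, 18 of 64 tested genes near the ends were called higher, and without mcrA-deleted replicate 2, 7 of 57 were. Over all features, calls in either direction were 2667 of 8023 and 1462 of 7919 in those fits, against 2343 of 7852 with all libraries.

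**Figure D3:**
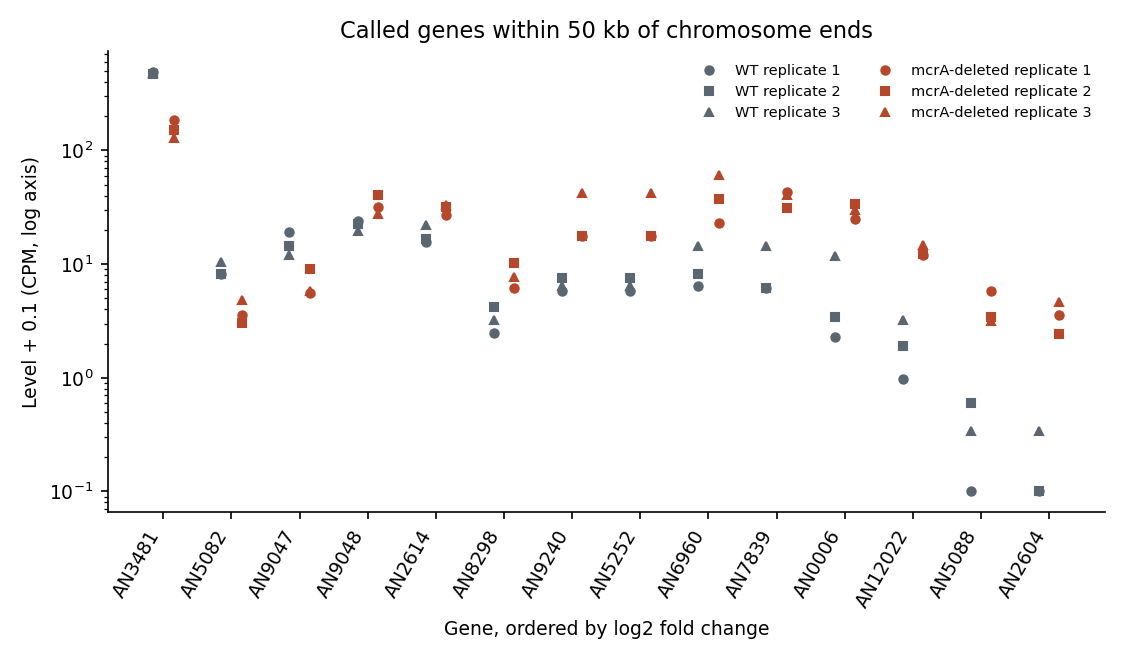
Level in each library (vertical axis, CPM + 0.1, log axis) of the 14 called genes within 50 kb of chromosome ends, ordered by log2 fold change; grey marks are WT, red marks mcrA-deleted, and mark shapes give the replicate. AN3481 fell from 479 to 155 CPM on average, and AN2604 and AN5088 stood near 0 in WT.

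AN2604 and AN5088 went from nearly silent to expressed; both were named after their values were seen. AN2604, at VII right (4499511 to 4501774), had WT counts of 0, 0 and 1 and mcrA-deleted counts of 12, 12 and 22. Its pooled ratio was 50.3 (exact binomial 95% interval 8.58 to 2028), and its adjusted p was 0.00428 (edgeR's quasi-likelihood test). Without WT replicate 2 the ratio was 29.7 (5.07 to 1197), and without WT replicate 3, which held the single WT count, it was at least 12.1-fold higher. AN5088 (III left; chromosome III, 17664 to 22414) had 0, 3 and 1 counts in WT and 20, 17 and 15 in the mcrA-deleted libraries, a log2 fold change of 3.76 (SE 0.672) at an adjusted p of 0.00708 in edgeR, or 4.80 without WT replicate 2. For both genes every mcrA-deleted library lay above every WT library. Both passed the count filter only through the mcrA-deleted libraries, and genes with so few WT counts can enter the test only as rises.

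The next rises started from low but measurable levels. AN12022 (III right) had 4, 11 and 13 counts in WT and 42, 62 and 72 in the mcrA-deleted libraries and rose by 2.74 on the log2 scale (SE 0.40) at an adjusted p of 0.00359 in edgeR. AN7839 (IV right) stood at 6.10, 6.12 and 14.3 CPM in WT and at 43.2, 30.8 and 40.7 CPM in the mcrA-deleted libraries and rose by 2.13 (SE 0.35; edgeR's adjusted p = 0.00539). AN6960 (I right) stood at 6.32, 8.10 and 14.3 CPM against 22.9, 37.4 and 60.2 CPM and rose by 2.09 (SE 0.423; edgeR's adjusted p = 0.011). In these genes WT replicate 3 was the highest of the WT libraries, and no mcrA-deleted library reached down to it.

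AN0006 (VIII right) had 10, 20 and 48 counts in WT and 86, 174 and 145 in the mcrA-deleted libraries and rose by 2.41 (SE 0.534) at an adjusted p of 0.0149 in edgeR. Without WT replicate 3 it rose by 3.39. Its call was lost without WT replicate 2 (adjusted p = 0.0593) or mcrA-deleted replicate 2 (adjusted p = 0.0542). The smaller rises were AN8298 (V left; 1.28, SE 0.33), AN2614 (VII right; 0.76, SE 0.188) and AN9048 (VII left; 0.60, SE 0.189), with adjusted p of 0.0249, 0.0217 and 0.049 in edgeR. AN8298 had 11, 25 and 13 counts in WT and 21, 52 and 37 after deletion, AN2614 had 71, 100 and 91 against 94, 162 and 160, and AN9048 had 109, 137 and 80 against 110, 208 and 135. AN9048 was also not called with no count filter (adjusted p = 0.0617). Their calls were lost in 3, 4 and 5 of the 6 fits that left out 1 library, with adjusted p between 0.0595 and 0.164 where lost (edgeR's quasi-likelihood test). AN8298 lost it without WT replicate 1 and mcrA-deleted replicates 2 and 3, AN2614 without WT replicates 1 and 2 and mcrA-deleted replicates 2 and 3, and AN9048 in every such fit except that without mcrA-deleted replicate 3.

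The other 2 called rises are a pair that cannot be read as separate genes. AN9240 (VIII left; chromosome VIII, 14517 to 15575, minus strand) and AN5252 (V right; chromosome V, 3376952 to 3378010, plus strand) are both 1059 bp long and had the same 26, 45 and 26 counts in WT and the same 61, 91 and 205 in the mcrA-deleted libraries. On all chromosomes, only 2 pairs of features with at least 20 counts in total had the same count in every library. Both members of this pair were given as rising by 1.99 (SE 0.389) at an adjusted p of 0.0097 in edgeR, and which locus the reads come from cannot be told from the counts. Counted as 1 measurement, they leave 10 separate rises.

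Their neighbours were silent in WT. AN5251, next to AN5252, had 0 counts in each WT library and 7, 25 and 188 in the mcrA-deleted libraries, at least 80.1-fold higher against the floor of 3 counts over WT. AN9239, next to AN9240, had 0 counts in each WT library and 3, 10 and 114, at least 46.3-fold higher. The order of the pair is mirrored between the 2 ends: AN5251 lies on the minus strand and AN9239 on the plus strand. Most of the counts of both lay in mcrA-deleted replicate 3, without which the bounds were 18.3-fold and 7.42-fold; without WT replicate 2 they were 47.3-fold and 27.3-fold. With all 6 libraries neither gene passed the count filter, which asks for enough counts in 3 libraries. In some fits with 1 library left out AN5251 was tested. It was called without WT replicate 3 or mcrA-deleted replicate 1 (edgeR's adjusted p = 0.0411 and 0.0287). Without WT replicate 1 or 2 it was tested and not called (edgeR's adjusted p = 0.0607 and 0.0812).

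Of the 123 genes silent in WT, 24 (19.5%) had at least 1 count in the mcrA-deleted libraries and 7 (5.69%) had at least 10. Among the 1545 other nuclear genes silent in WT these shares were 31.3% and 7.25%. The 7 lay at 4 ends. AN12371, AN10870 and AN10869 are 3 neighbours at I right whose mcrA-deleted sums were 16, 16 and 48 counts, AN11203 and AN9239 are neighbours at VIII left with 21 and 127, and AN5251 (V right) and AN12325 (VI right) had 220 and 13. AN10869 had 7, 5 and 36 counts in the mcrA-deleted libraries, at least 17.5-fold higher; AN11203 had 2, 4 and 15, at least 7.65-fold; AN12371 had 0, 2 and 14, at least 5.83-fold. Without mcrA-deleted replicate 3, the highest library for each, the bounds of AN10869 and AN11203 were 6.85-fold and 3.42-fold and AN12371 was under the floor; without WT replicate 2 the 3 bounds were 10.3, 4.52 and 3.44-fold. In the opposite direction 4 genes with WT counts had 0 in the mcrA-deleted libraries, none with more than 4 counts over WT.

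With no count filter, 138 of the genes near the ends were tested, and 18 were called higher and 4 lower; over all 9629 features tested in that fit, 13.3% were higher and 11.3% lower. Among the calls added there was AN6963 (I right), named after its value was seen, with 0, 0 and 1 counts in WT and 3, 33 and 58 after deletion, which pooled to a ratio of 103 (exact binomial 95% interval 18.0 to 4100). AN3479 (II right), also named after its value was seen, had 30, 41 and 10 counts in WT and 2, 1 and 5 in the mcrA-deleted libraries, a log2 fold change of -3.12 (SE 0.65) at an adjusted p of 0.0114 in that edgeR fit.

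The 3 falls were AN3481, AN5082 and AN9047. AN3481 had 2260, 2824 and 1973 counts in WT and 650, 769 and 626 in the mcrA-deleted libraries. In level it went from 479 ± 13.0 to 155 ± 29.1 CPM (SD, n = 3 each), a log2 fold change of -1.63 (SE 0.17) at an adjusted p of 0.00138 in edgeR, and none of the 6 fits with 1 library removed lost the call. AN5082 (III left) had 37, 49 and 43 counts against 12, 15 and 23 and fell by 1.25 on the log2 scale (SE 0.286; edgeR's adjusted p = 0.0165); its call was lost without mcrA-deleted replicate 2 (adjusted p = 0.0677). AN9047 (VII left) had 88, 86 and 49 counts against 19, 46 and 28 and fell by 1.15 (SE 0.292; edgeR's adjusted p = 0.0237), with its call lost without WT replicate 1 or 2 or mcrA-deleted replicate 1 or 3 (edgeR's adjusted p between 0.0615 and 0.0767). AN9047 lies beside AN9048, which was called higher, so neighbours at VII left changed in opposite directions. No 2 tested neighbours at an end were called in the same direction. That statement covers tested genes alone. Genes silent in WT that gained counts beside a called rise, as AN5251 beside AN5252 and AN9239 beside AN9240, were not tested in this fit.

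Taken over all 237 genes, the share of nuclear gene counts was 0.103%, 0.102% and 0.114% in WT and 0.108%, 0.107% and 0.129% after deletion. The groups overlapped (difference 0.00844 percentage points; exact two-sided permutation test, p = 0.5, where 3 against 3 libraries cannot go below 0.1). Without AN3481, left out after its values were seen, the shares were 0.0613% ± 0.00977 for WT and 0.0985% ± 0.0145 after deletion (SD, n = 3 each), and all 3 mcrA-deleted libraries lay above all 3 WT libraries (exact permutation test, p = 0.1). Of 8 such values per library that were compared, none had an adjusted p under 0.16 (Benjamini-Hochberg over exact permutation tests).

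With all libraries thinned to 3374534 counts, 38.4% ± 3.45 of the genes near the ends had at least 1 count in a WT library and 45.9% ± 2.08 in a mcrA-deleted library (SD, n = 3 each). The other nuclear genes went from 80.4% ± 1.10 to 84.3% ± 0.701. For each set the 3 mcrA-deleted libraries lay above the WT libraries (exact two-sided permutation test, p = 0.1, the smallest possible). The rise near the ends was 3.55 percentage points larger than elsewhere, a difference that did not separate the groups (exact permutation test, p = 0.2). Without thinning the shares were 39.9% ± 4.27 and 47.7% ± 3.68 near the ends.

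Summed over each end, levels separated the genotypes at 7 of the 16 ends, 6 of them higher after deletion and 1 lower. Of single features tested, groups did not overlap for 48.9%, a share not matched to sums over all genes of an end. At VIII left the sums were 11.1, 14.4 and 18.7 CPM in WT and 40.9, 31.6 and 75.8 CPM in the mcrA-deleted libraries. At IV right they were 23.5, 21.2 and 34.4 against 54.9, 45.2 and 58.2 CPM. At V left they were 3.05, 5.29 and 3.63 against 6.86, 12.9 and 15.6 CPM. Single genes made up much of these differences. AN9240, whose reads may come from V right, averaged 6.47 CPM in WT and 25.7 CPM after deletion at VIII left. AN7839 averaged 8.84 and 38.2 CPM at IV right, and AN8298 3.23 and 7.91 CPM at V left. The others higher were I right, III right and VI right, and II right was lower at 510 ± 11.9 against 187 ± 35.8 CPM (SD, n = 3 each), nearly all of it AN3481. Each exact permutation p was 0.1, the smallest possible, over 16 ends compared. Leaving out WT replicate 3 (chosen after the data were seen) gave 11 ends higher and 1 lower, the added ends being II left, III left, VI left, VII right and VIII right; with 2 libraries in a group, groups overlap less often by construction. Leaving out mcrA-deleted replicate 1 gave 9 higher and 1 lower, and leaving out each other library gave 6 higher and 1 or 2 lower.

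**Figure D4:**
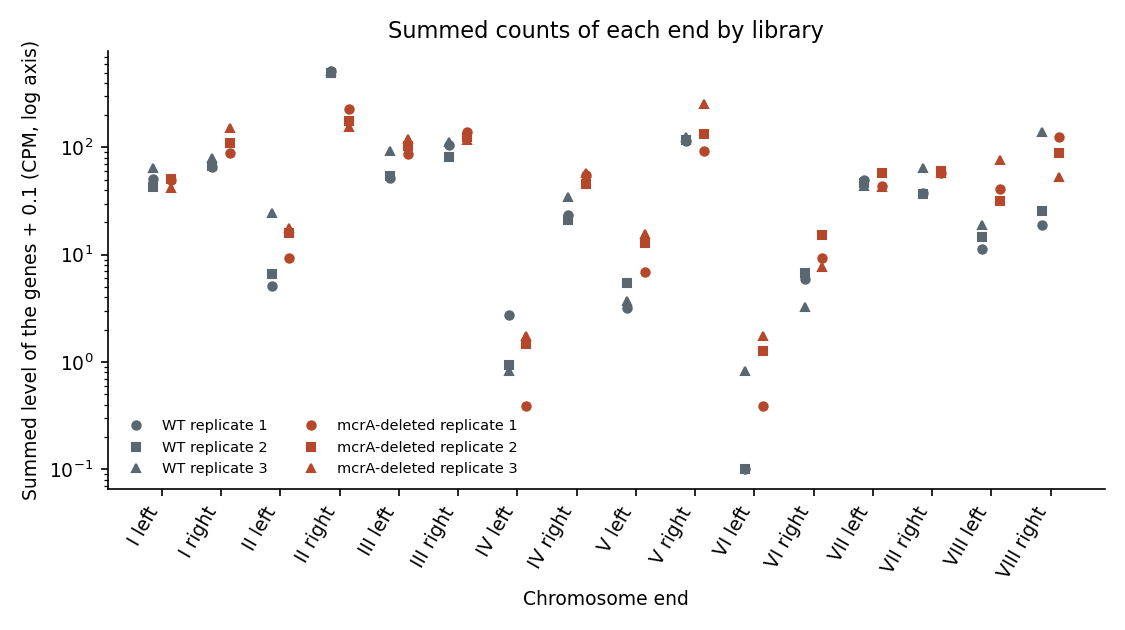
Summed level of the genes within 50 kb at each chromosome end (vertical axis, CPM + 0.1, log axis) in each of the 6 libraries; grey marks are WT, red marks mcrA-deleted, and mark shapes give the replicate. II right was lower in all mcrA-deleted libraries, and WT replicate 3 stood at 138 CPM at VIII right against 19.0 and 25.6 CPM in the other WT libraries.

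At several ends WT replicate 3 lay far above the rest of WT. At VIII right its sum was 138 CPM, against 19.0 and 25.6 CPM in WT replicates 1 and 2 and 126, 88.9 and 52.8 CPM in the mcrA-deleted libraries. The difference lay in 3 neighbours, named after their values were seen: AN0009, AN0010 and AN0011 had 128, 203 and 135 counts there, against 4 to 20 in the other WT libraries. At II left its sum was 24.5 CPM, against 5.01 and 6.45 CPM in the other WT libraries and 9.15 to 17.6 CPM in the mcrA-deleted libraries. At III left it was 92.5 CPM, against 51.9 and 54.5 CPM in WT and 86.4 to 119 CPM after deletion, and at VII right 64.4 CPM, against 37.5 and 36.5 CPM in WT and 57.1 to 60.6 CPM after deletion.

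The penicillin cluster lies at VI right, with its 3 genes listed from background knowledge. AN2621 (acvA; 3362471 to 3373783), which encodes the peptide synthetase that joins the precursor amino acids, had 0, 1 and 1 counts in WT and 6, 4 and 7 after deletion, which pooled to a ratio of 9.29 (exact binomial 95% interval 2.21 to 82.9), too few to be tested with the count filter. AN2622 (ipnA), which encodes isopenicillin N synthase, had 9, 22 and 8 counts in WT and 9, 54 and 15 in the mcrA-deleted libraries and did not pass the test (log2 fold change 1.09 with SE 0.606, adjusted p of 0.207 in edgeR), with 0.15 without mcrA-deleted replicate 2. AN2623 (aatA), which encodes the acyltransferase of the last step, had 14, 12 and 3 against 7, 12 and 0 counts. The groups' counts overlapped for AN2622 and AN2623 and did not for AN2621.

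Backbone enzymes, which build the core of a secondary metabolite, numbered 6 near the ends among the 68 listed genes present in the files. Besides acvA and the 3 silent genes of VI left these were AN9243 and AN9244, neighbouring peptide synthetase genes at VIII left. AN9243 had 6, 15 and 12 counts in WT and 30, 22 and 7 after deletion (log2 fold change 1.04, SE 0.638), and AN9244 had 13, 15 and 23 against 44, 28 and 15 (0.94, SE 0.573). In both, mcrA-deleted replicate 3 lay among the WT libraries, and neither passed the test (adjusted p = 0.249 and 0.247, edgeR's quasi-likelihood test). Without mcrA-deleted replicate 1 their values were 0.36 and 0.25. So 0 of the 2 tested backbone genes near the ends were called. In the whole list, which includes these 2, 15 were called higher and 2 lower of 30 tested. Over all features tested, 16.1% were higher and 13.7% lower. With 2 neighbouring genes, the counts cannot show whether backbone genes near the ends differ from the rest of the list. With an unadjusted p under 0.05 in edgeR, or in DESeq2's Wald test, again 0 of the 2 genes near the ends passed.

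Of 13 listed genes for chromatin modifiers, none of which lies near an end, all were tested. Among them 2 were called higher and none lower, beside 16.1% higher and 13.7% lower over all features tested. Their median log2 fold change was 0.14. Below an unadjusted p of 0.05 in edgeR there were 3 higher and 1 lower, and DESeq2's Wald test called 2 higher and 0 lower. The 2 were laeA (AN0807), a methyltransferase-like regulator of secondary metabolism (log2 fold change 1.16, SE 0.207), and AN5795, listed as a histone H3 lysine methyltransferase (0.54, SE 0.148). The histone deacetylase gene hdaA (AN8042), which is known to affect clusters near chromosome ends, went from 34.5 ± 5.44 to 47.6 ± 7.34 CPM (SD, n = 3 each) and did not pass (adjusted p = 0.0918, edgeR's quasi-likelihood test). The heterochromatin protein gene hepA (AN1905) stood at 37.7 ± 7.63 and 36.3 ± 4.69 CPM.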

How the data were processed

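The authors deposited raw counts, 1 table a library, without normalization and over 10983 features; 0 columns of sample values were left unmapped. CASAVA and HISAT (version 1) were used, per the submitters' processing notes. Not given in the sources used here are the counting tool, how it treated strand or multiply placed reads, and the annotation. Libraries were strand-specific, per the labels' protocols. From the counts, edgeR 4.0.16 in R 4.3.3 was run over all features (TMM scaling, filterByExpr with a minimum count of 10, quasi-likelihood test, genotype as the only term, Benjamini-Hochberg adjustment, two-sided), and 7852 features were tested. CPM and RPKM use TMM-scaled library sizes; RPKM uses the genomic span. The pseudocount was 0.1 RPKM. DESeq2 1.42.0 was an alternative. Tested on simulated counts, the fit recovered more of the larger than of the smaller known changes. Exact permutation tests used scipy 1.17.1.

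The members and lists were chosen with earlier results of these data known. Named genes are mcrA, up to 10 largest rises and falls among called genes with groups that did not overlap and a mean of at least 20 counts in the higher group, the 5 highest in WT RPKM, the 5 genes silent in WT with most counts after deletion, members of fixed lists (up to 4 called, or 2 of highest level), runs of called neighbours (none was found) and the outermost gene of each end. Of 16 gene lists, written from background knowledge, 14 held no gene near an end, chromatin modifiers among them. Planned classes by product name were not run because the RefSeq table (ASM1142v1), used for names only, has no product names; 213 of the 237 genes matched it and 1 had a symbol. Of the 237, 9 overlapped another feature.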

Additional observations from a re-analysis of the deposited data

How the results depend on the processing

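The counts of 11 rises and 3 falls were 11 and 3 with DESeq2's Wald test and with RLE scaling, and 12 and 3 with library size alone, where the median over all features went from 0.00214 to 0.17. With a mean count of at least 50 there were 7 rises and 2 falls of 22 tested, and with no filter 18 and 4 of 138. Over all features, 1936 of 6401 and 2377 of 9629 were called in either direction there, against 2343 of 7852 in the main fit. A window of 25 kb gave 5 and 0, with 25 genes tested, and 100 kb gave 33 and 15, with 156 tested. Both windows use the main fit, with 16.1% higher and 13.7% lower over all features tested. Leaving out 1 library gave 7 to 18 rises and 2 to 4 falls. Calls over all features also varied in those fits, from 1378 (without WT replicate 2) to 2667 (without WT replicate 3). Without the genes that share all counts, an alternative chosen after the data were seen, 9 rose. The median log2 fold change lay between 0.16 and 0.57 in all these fits. The replicate block gave 13 rises and 3 falls. Deviations of same-numbered libraries correlated at 0.263, -0.0757 and 0.168, and those of differently numbered libraries at -0.264 to 0.129. So few values cannot decide whether the numbers pair the samples, and the labels state no pairing.

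The silent share of 51.9% was 60.3% with up to 3 WT counts and 72.2% under 1 CPM, and 51.9% to 55.7% with 1 library left out. The WT gap of -6.68 between medians was -6.64 for 25 kb, -6.75 for 100 kb, -3.48 with a pseudocount of 1 RPKM and -2.09 over genes kept by the filter. Its genotype difference of 0.09 was -0.17 for 25 kb, -0.165 without the genes that share all counts, -0.162 with thinned libraries and -0.12 with a pseudocount of 1 RPKM, each with groups that did not overlap (exact permutation test, p = 0.1, the smallest possible), and ran from -0.17 to 0.22 with 1 library left out; the cause was not tested. The difference in count share stayed positive, at 0.00126 (without mcrA-deleted replicate 3) to 0.0122 points with 1 library left out, against 0.00844 as reported (exact permutation test, p = 0.5). It was 0.0198 points for 25 kb and 0.117 points for 100 kb, both with groups that did not overlap (exact permutation test, p = 0.1). The 7 ends with separate sums became 7 to 12 with 1 library left out.

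Over 25 named genes tested, 290 refitted values included 20 that lost a call, in 6 genes, and 8 that changed sign, all in genes not called: AN5257 (-0.29 without mcrA-deleted replicate 3, up to 0.37 without replicate 1), AN8591 (0.14 with library size alone, 0.012 with a mean count of at least 50, and -0.35 to 0.33 with 1 library left out), AN6968 (0.11 with library size alone) and AN2615 (0.18 without WT replicate 3, down to -0.54 without replicate 2). Of the 237 genes 181 had too few counts to test, 99 of them with 0 counts in all 6 libraries; whether more depth would bring them in was not tested.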
